A study of Mus musculus with 12 samples.

Results

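Ptgs2 encodes prostaglandin-endoperoxide synthase, the inducible cyclooxygenase also called COX-2. It was measured by 1 of the 5030 spots of a spotted mouse array, found as the spot whose current mouse gene symbol is Ptgs2, and it is 1 of the 4605 distinct genes that the spots name. RNA from 2 mouse bone cell lines was hybridised to 12 one-colour arrays, 3 for each of 4 groups. MLO-Y4, an osteocyte line from a mouse whose osteocalcin promoter drives T antigen, was grown at a density called high (3 arrays) and at one called low (3 arrays). The osteoblast line 2T3, from a mouse in which the BMP-2 promoter drives SV-40 T antigen, was grown in a state called C0 (3 arrays) and at low density (3 arrays). All 4 groups thus carry T antigen, and the labels name no treatment. The labels set osteocytes with gap junctions against osteocytes without them, and confluent against sparse osteoblasts. The high group was read as the one with gap junctions, and C0 as the confluent one, only because the other group of each line is called low. Each cell type is represented by 1 line, so a difference of cell type cannot be told apart from a difference of the line or of its source mouse. The labels do not say whether the 3 arrays of a group came from separate cultures, so p-values measure only the spread between arrays, which may be technical.

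Cyclooxygenases turn arachidonic acid, which phospholipases A2 release from membranes, into prostaglandin H2, and terminal synthases convert that intermediate into prostaglandin E2, prostacyclin, thromboxane and related lipids. Ptgs2 is low in most resting cells and is induced by cytokines, growth factors and, in bone, by mechanical load and fluid flow. Osteocytes, the cells buried in bone matrix, are a known source of load-induced prostaglandin E2, which acts on neighbouring bone cells through the E-type prostaglandin receptors.

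In the RefSeq annotation of GRCm38.p6 the gene lies on the plus strand of chromosome 1, from 150100031 to 150108234, a span of 8204 bases that includes its introns. The array spot was assigned to it by the platform annotation, and which exon the spotted sequence covers is not given in the sources used here. The window around its start, chr1:150099781-150100060, holds 250 bases before the start and the first 30 after it. The start is the first base of the annotated gene, and where transcription begins in these cells was not measured. It is shown because regulators of this promoter are described below. Capitals mark the motif matches.
Ptgs2: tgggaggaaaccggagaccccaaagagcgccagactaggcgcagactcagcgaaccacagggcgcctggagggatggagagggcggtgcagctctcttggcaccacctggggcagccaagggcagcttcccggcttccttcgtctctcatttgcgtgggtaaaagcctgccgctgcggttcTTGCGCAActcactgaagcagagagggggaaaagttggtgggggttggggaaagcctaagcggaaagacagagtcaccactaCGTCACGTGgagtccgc
Both strands were searched, and the same search was run on 32851 promoter windows of this length. The palindrome TTGCGCAA, a palindromic site of the C/EBP family, lay at -69 to -62 from the start, and 0.18% of the windows held it. The half-site of the cyclic AMP response element, TGACG, lay on the minus strand at 14 to 18 after the start and was present in 19.9% of the windows. It overlapped the E-box palindrome CACGTG at 17 to 22, which 6.79% of the windows held. No match was found to the kB consensus (4.22% of windows), to the AP-1 letters TGANTCA (7.46%) or to CCAAT (36.1%). These are matches of letters in this window and say nothing of which factors bind.

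The deposited values are linear spot intensities that run from -23 to 53055, so a background had been subtracted. Array medians ran from 4 to 55, and between 37.9% and 74.8% of the spots of an array lay above its detection limit, taken here as the size of its lowest value. Arrays were scaled to equal medians, values under 3.96 scaled units were raised to that floor, and log2 was taken. The 12 arrays limit the precision of every value below.

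Ptgs2 was far brighter on every MLO-Y4 array than on any 2T3 array. Its deposited intensity was 1896, 4844 and 2067 on MLO-Y4 high arrays 1, 2 and 3, and 6901, 3307 and 3388 on the MLO-Y4 low arrays. It was 69, 74 and 58 on the 2T3 C0 arrays and 7, 96 and 13 on the 2T3 low arrays. Before any scaling, the dimmest MLO-Y4 array therefore read 1896 and the brightest 2T3 array 96, and the lines did not overlap. The detection limits of these arrays ran from 5 to 20 in MLO-Y4 and from 3 to 23 in 2T3. On the MLO-Y4 arrays the spot stood between 112 and 661 times above the limit of its array. Of the 2T3 arrays, 5 of 6 lay above their limit, by 3.41 to 12 times, and 2T3 low array 1 lay below it at 0.304 times. In RNA from a whole culture, fewer cells that express Ptgs2 and less Ptgs2 RNA per cell cannot be told apart.

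After scaling to equal medians the intensity was 3828, 3143 and 3130 on MLO-Y4 high arrays 1, 2 and 3, and 12538, 6008 and 5130 on the MLO-Y4 low arrays. The 2T3 C0 arrays read 54.5, 29.9 and 19.2 scaled units, and the 2T3 low arrays 2.36, 60.1 and 59.0, the first of them under the floor. MLO-Y4 low array 1 was the brightest of the 12 and 2T3 low array 1 the dimmest. The 2 MLO-Y4 arrays numbered 1 also had the smallest shares of spots above the limit, 37.9% in MLO-Y4 high and 38.1% in MLO-Y4 low, where the other MLO-Y4 arrays had 56.4% to 64.5%. Scaling by the median multiplied the reading of MLO-Y4 low array 1 more than detected-spot scaling did, which set it at 6133 units. The part of this smaller share in the reading of that array was not tested.

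The rank of the Ptgs2 spot on its own array needs no scaling. Counted from the brightest of 5030 spots, Ptgs2 stood at rank 112, 48 and 63 on the MLO-Y4 high arrays and at 26, 27 and 28 on the MLO-Y4 low arrays. In 2T3 it stood at 1545, 1988 and 2443 in C0, and at 4541, 1340 and 1474 in low culture. As a percentile of the array, this was 98.5 ± 0.665 in MLO-Y4 high, 99.5 ± 0.0199 in MLO-Y4 low, 60.3 ± 8.97 in 2T3 C0 and 50.9 ± 36.0 in 2T3 low (SD, n = 3 each). The 3 MLO-Y4 low arrays thus placed the spot within 3 neighbouring ranks while their deposited intensities ran from 3307 to 6901. A rank also depends on how strongly each spotted probe binds, so it is used here only to set arrays against each other.

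**Figure D1:**
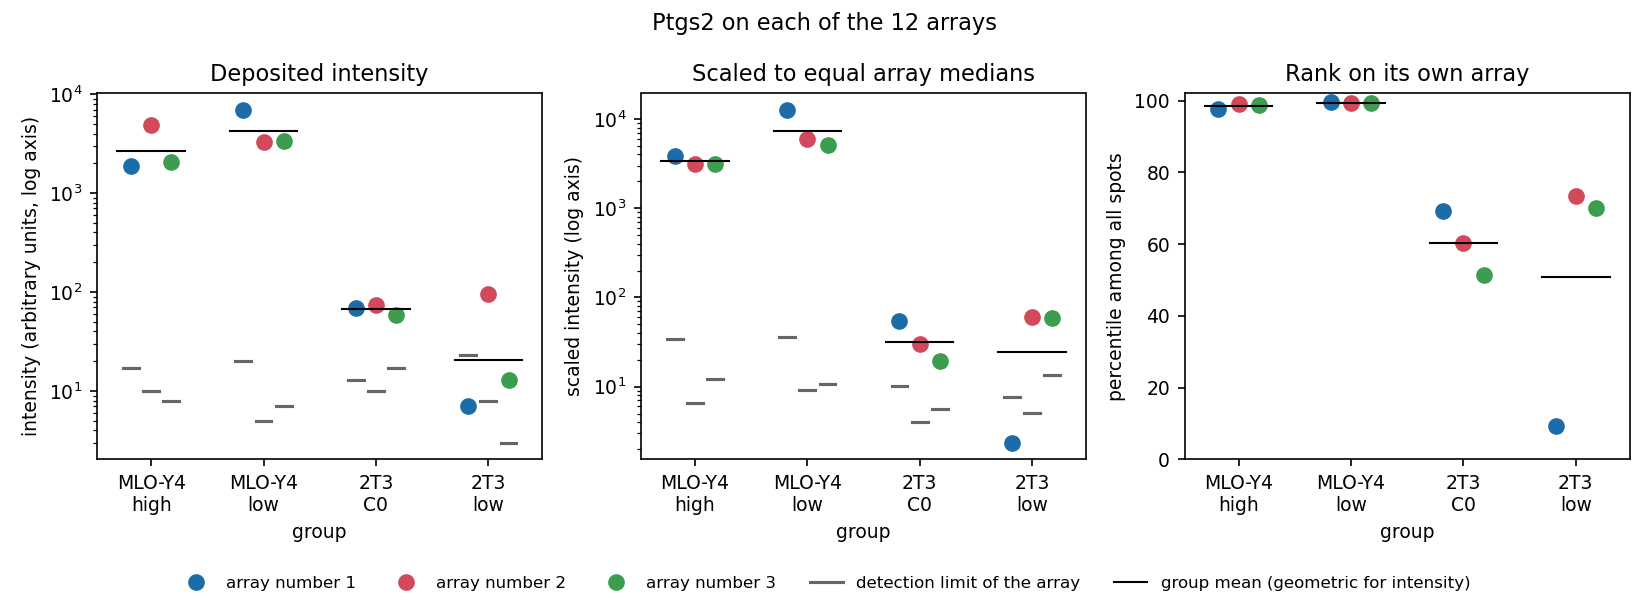
Ptgs2 on each array as deposited intensity (left, arbitrary units, log axis), as intensity scaled to equal array medians (centre, log axis) and as the percentile of the spot on its array (right), with the 4 groups along the horizontal axis. Points are arrays coloured by number, short grey bars are detection limits and black lines are group means, geometric for intensity. All 6 MLO-Y4 arrays lie above all 6 2T3 arrays in each panel, and 2T3 low array 1 lies below its limit, at percentile 9.34.

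The comparison of the lines asked how far Ptgs2 differed between the osteocyte and the osteoblast line over both densities. Its geometric mean was 4941 scaled units on the 6 MLO-Y4 arrays and 27.6 on the 6 2T3 arrays. The log2 difference was 7.49 (SE 0.66), with a 95% confidence interval of 6.03 to 8.94, a 179-fold higher level in MLO-Y4 with an interval of 65.3 to 492. The adjusted p was 4.94e-05 in limma's moderated test with Benjamini-Hochberg adjustment over all spots. This was the 3rd largest rise of the 5030 spots, of which 8.23% were called higher in MLO-Y4 and 1.87% lower. All 6 MLO-Y4 arrays lay above all 6 2T3 arrays, which held for 6.1% of the spots. An exact two-sided permutation test of 6 against 6 arrays gave p = 0.00216 for the log2 value and for the percentile, where the difference was 43.4 points, and 0.00216 is the smallest p that the 924 splits allow.

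The size of the fold leaned on the dimmest array and on how low values were treated. Without 2T3 low array 1 the difference was 6.83 on the log2 scale, or 114-fold. With 50 units added in place of the floor it was 5.89, or 59.2-fold. The lines also differed in general brightness. Spots above the limit on all 12 arrays had a median difference of 0.79 on the log2 scale with equal medians, against 0.04 with quantile normalization, -0.07 with scaling on such detected spots, -0.06 with scaling on 6 control genes and -0.32 with no scaling. The Ptgs2 difference under the same 5 scalings was 7.49, 6.70, 6.75, 6.76 and 6.51. Relative to that median it was 6.70, 6.66, 6.83, 6.83 and 6.83, and Ptgs2 was the 3rd largest rise under each. All of these but quantile normalization apply no more than a factor per array, which moves Ptgs2 and those spots alike. Apart from values at the floor, their agreement relative to that median was therefore fixed in advance and is no separate support. The share of called spots that were higher in MLO-Y4 was 81.5% with equal medians, 62.6% with quantile normalization, 43.8% with detected-spot scaling and 46.7% with control-gene scaling.

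**Figure D2:**
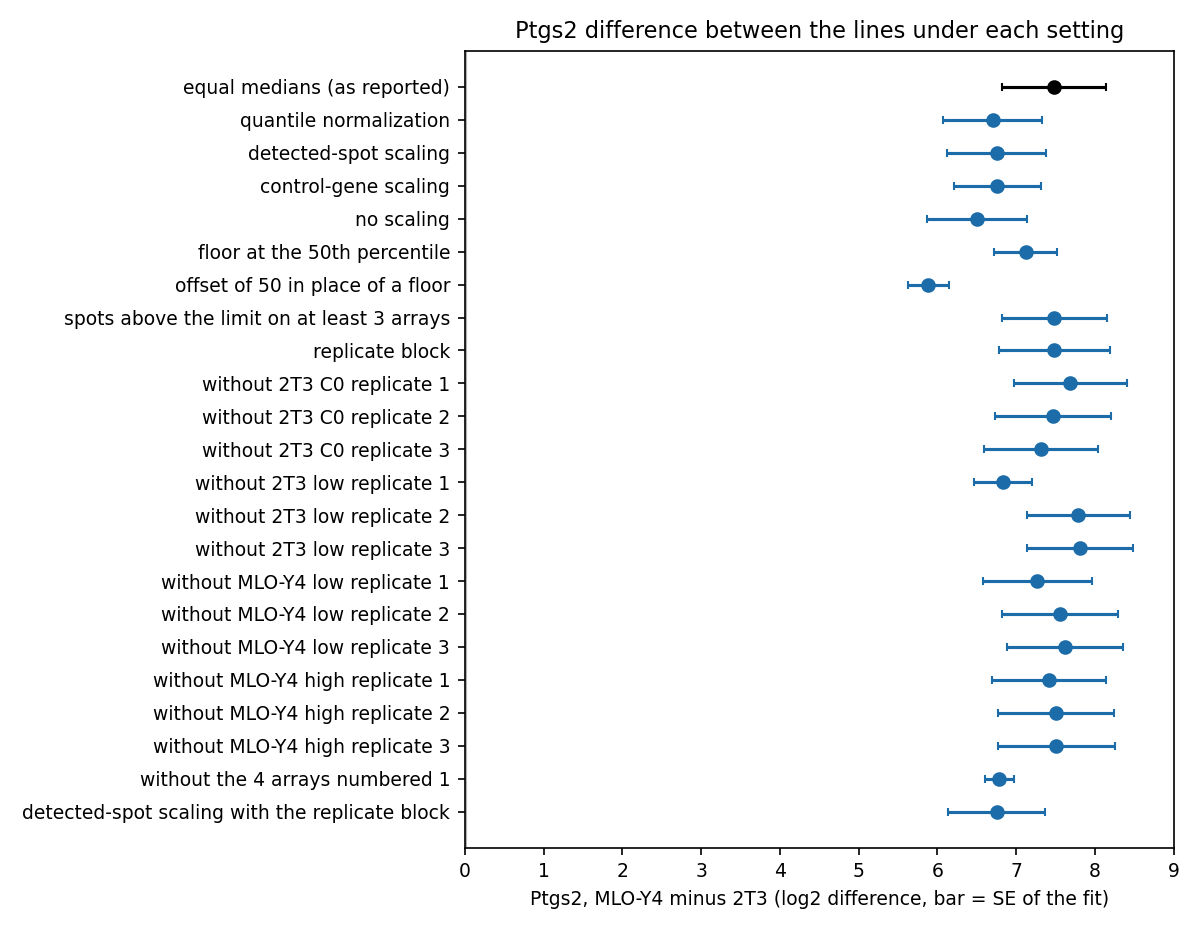
Difference of Ptgs2 between the lines (horizontal axis, MLO-Y4 minus 2T3 on the log2 scale, bars are the SE of the fit) as reported and under 22 other settings, listed down the vertical axis. Each lies between 5.89 (an offset of 50 in place of a floor) and 7.81 (without 2T3 low replicate 3).

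Ptgs2 was higher in the osteocyte line at each density taken alone. At low density the geometric mean was 7284 scaled units in MLO-Y4 and 24.1 in 2T3, a log2 difference of 8.24 (SE 0.93, 95% interval 6.18 to 10.30), or 302-fold (adjusted p = 0.000853, limma). It was the 3rd largest rise in this comparison, in which 3.74% of spots were called, 3.22% higher and 0.517% lower in MLO-Y4 low. Without 2T3 low array 1 the fold was 122, without 2T3 low array 2 it was 457, and without 2T3 low array 3 it was 472. The differences between arrays of the same number were 11.63, 6.64 and 6.44 on the log2 scale, all in the same direction, and the largest holds the 2T3 array at the floor.

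In dense culture the geometric mean was 3352 in MLO-Y4 high and 31.5 in 2T3 C0. The log2 difference was 6.73 (SE 0.93, interval 4.67 to 8.79), or 106-fold (adjusted p = 0.00270, limma). It was the 8th largest rise among spots of which 2.76% were called, 2.31% higher and 0.457% lower in MLO-Y4 high. Same-numbered arrays differed by 6.13, 6.72 and 7.35. Across all spots, arrays of the same number in these 2 groups deviated together. A limma fit of the 6 arrays alone with replicate number as a block left the difference at 6.73 with an adjusted p of 0.0907. The block over all 12 arrays gave an adjusted p of 0.00534. With no scaling the difference was 5.32 and with control-gene scaling 5.48, or 44.7-fold.

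Within the osteocyte line the comparison asked whether Ptgs2 differed between cultures of high and of low density. Every MLO-Y4 high array read below every MLO-Y4 low array after scaling, at 3130 to 3828 units in high culture and 5130 to 12538 in low culture. The geometric mean in high culture was 46.0% of that in low culture. The log2 difference of -1.12 (SE 0.93) had a 95% interval of -3.18 to 0.94, and it did not pass the test (adjusted p = 1 in limma). This SE pools the spread of all 4 groups, of which 2T3 low had the largest SD (2.26). It was 0.41 with the 6 MLO-Y4 arrays fitted alone and 0.48 without 2T3 low array 1, and the difference passed in neither fit. The fit over all 12 arrays and the permutation test did not use the array numbers. No spot of this comparison passed in limma, and 116 had an unadjusted p under 0.05. The exact two-sided permutation test gave p = 0.1 for the log2 value and for the percentile, where the difference was -0.941 points, and 0.1 is the smallest p that 3 arrays against 3 allow. Of all 5030 spots, 2.25% had all 3 high arrays below all 3 low arrays, and of the 1474 spots above the limit on all 6 MLO-Y4 arrays 0.814% did.

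Arrays of the same number pointed the same way in MLO-Y4. The log2 difference of Ptgs2 between high and low culture was -1.71, -0.93 and -0.71 for arrays numbered 1, 2 and 3, so that the high array stood at 30.5%, 52.3% and 61.0% of its low partner. With the 6 MLO-Y4 arrays fitted alone and the replicate number as a block, the SE was 0.29 and the adjusted p 0.793 (limma). Quantile normalization put the high arrays at 1777 to 3783 and the low arrays at 5725 to 6129, and detected-spot scaling the high arrays at 1791 to 3117 and the low arrays at 4750 to 6133. Control-gene scaling put the high arrays at 1472 to 3687 and the low arrays at 5277 to 6871. The groups overlapped only with no scaling, where the deposited intensities ran from 1896 to 4844 in high culture and from 3307 to 6901 in low culture. There the high mean was 62.6% of the low mean, and MLO-Y4 high array 2 read above 2 of the 3 low arrays.

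**Figure D3:**
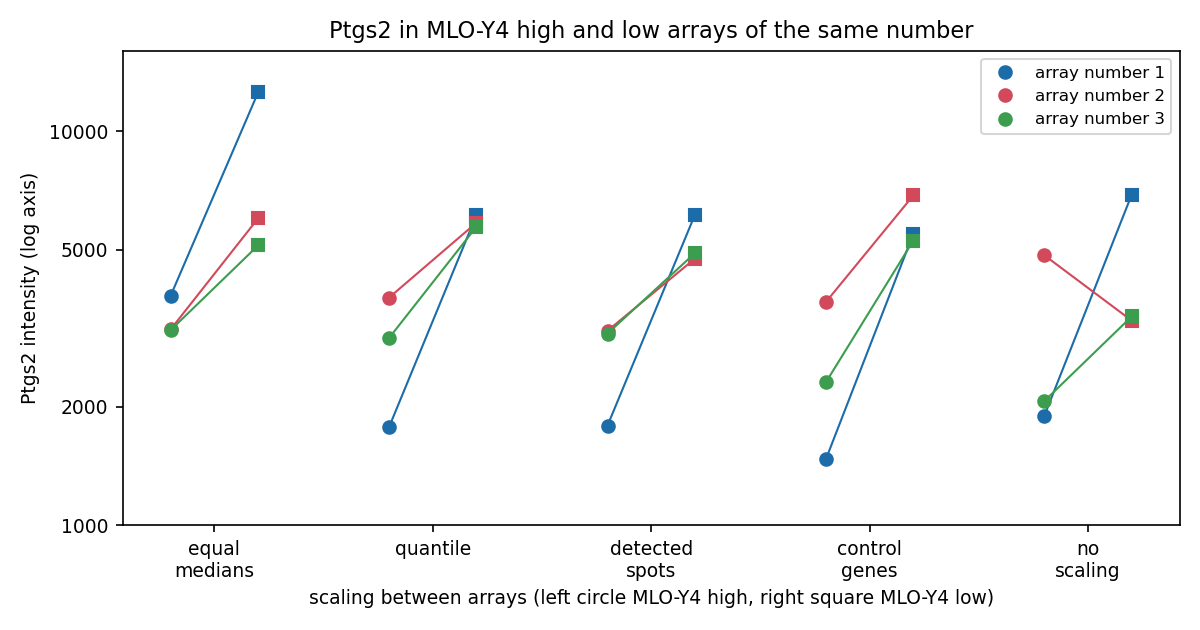
Ptgs2 intensity (vertical log axis) on MLO-Y4 high arrays (circles, left of each pair) and MLO-Y4 low arrays (squares, right), joined by array number, under 5 scalings along the horizontal axis. With equal medians the high arrays lie between 3130 and 3828 and the low arrays between 5130 and 12538, and the line for number 2 runs the other way only where nothing is scaled.

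In the osteoblast line Ptgs2 showed no steady direction between C0 and low culture. The scaled values were 54.5, 29.9 and 19.2 in C0 and 2.36, 60.1 and 59.0 in low culture, so the low arrays lay both below and above all C0 arrays. The log2 difference was 0.38 (SE 0.93, interval -1.68 to 2.44, adjusted p = 1 in limma), and the exact two-sided permutation p was 1. Same-numbered arrays differed by 3.78, -1.01 and -1.62. Without 2T3 low array 1 the difference was -0.92, and without the 4 arrays numbered 1 it was -1.32 (adjusted p = 0.448), with C0 below low culture in both. No spot passed in this comparison in limma, and 141 had an unadjusted p under 0.05. The MLO-Y4 difference of -1.12 lies inside the interval of -1.68 to 2.44, so a difference of that size was not excluded in 2T3.

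Whether density acted on Ptgs2 differently in the 2 lines was tested as the MLO-Y4 difference minus the 2T3 difference. It came to -1.50 on the log2 scale (SE 1.32, interval -4.42 to 1.41, adjusted p = 1 in limma). Without the 4 arrays numbered 1 it was 0.49. No spot passed this test, and 104 had an unadjusted p under 0.05.

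In order of their geometric means, the groups ran MLO-Y4 low (7284 scaled units), MLO-Y4 high (3352), 2T3 C0 (31.5) and 2T3 low (24.1). Only the step from MLO-Y4 high to 2T3 C0 passed the test between neighbours. The spread of Ptgs2 between arrays of a group was 0.17 in MLO-Y4 high, 0.69 in MLO-Y4 low, 0.76 in 2T3 C0 and 2.26 in 2T3 low (SD of log2 values, n = 3 each). For the 1253 spots above the limit on all 12 arrays the median SD was 0.98, 0.86, 0.69 and 0.66 in the same groups. With equal medians Ptgs2 thus varied less than the median spot in both MLO-Y4 groups and more in both 2T3 groups. In 2T3 low the SD rests on the array at the floor. Which MLO-Y4 group spread more depended on the scaling. Quantile normalization put the high arrays at 1777 to 3783 and the low arrays at 5725 to 6129. As a percentile of the array, the SD was 0.665 in MLO-Y4 high and 0.0199 in MLO-Y4 low.

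Of the 23 measured genes of prostaglandin synthesis, reception, transport and breakdown, 3 were called higher in MLO-Y4 and 0 lower, where 10.1% of all spots were called in either direction, and Ptgs2 is 1 of the 3. Among the 13 synthesis genes the median log2 difference was -0.14, against 0.11 over all spots. Pla2g6, a calcium-independent phospholipase A2, exceeded the limit on 4 of 6 arrays of MLO-Y4 and on 0 of 6 of 2T3. It averaged 27.8 scaled units in MLO-Y4 and 4.06 in 2T3, at least 3.95-fold higher in MLO-Y4 (adjusted p = 0.0302, limma), the bound being the MLO-Y4 mean over the mean of the 2T3 detection limits. Cbr1, a carbonyl reductase that can reduce prostaglandin E2, averaged 162 units in MLO-Y4 and 28.3 in 2T3 (log2 difference 2.51, SE 0.67, adjusted p = 0.0379). Leaving out 1 array at a time ended the call of Pla2g6 in 10 of 12 fits, that of Cbr1 in 9 of 12 and that of Ptgs2 in 0 of 12. Of the 3 scalings by quantile, detected spots and control genes, 2 ended the call of Pla2g6, 1 that of Cbr1 and 0 that of Ptgs2.

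The other synthesis genes did not pass. Pla2g4a, the cytosolic phospholipase A2 that releases arachidonic acid, averaged 26.3 units in MLO-Y4 and 12.4 in 2T3 (log2 1.08, SE 0.64, adjusted p = 0.386), and was above the limit on 5 of 6 arrays of each line. Ptges3, the cytosolic prostaglandin E synthase, averaged 63.7 in MLO-Y4 and 55.7 in 2T3 (log2 0.19, SE 0.86). The prostacyclin synthase gene Ptgis averaged 23.0 in MLO-Y4 and 52.2 in 2T3 (log2 -1.19, SE 0.50, adjusted p = 0.193), and the thromboxane synthase gene Tbxas1 33.0 in MLO-Y4 and 37.0 in 2T3 (log2 -0.16, SE 0.70). Ptgds, a prostaglandin D synthase, exceeded the limit on 0 of 6 MLO-Y4 and 1 of 6 2T3 arrays. The secreted phospholipases Pla2g2e (0.77), Pla2g1b (-0.63) and Pla2g2d (-0.78) had log2 differences that also missed the threshold. Pla2g5 and the platelet-activating factor hydrolase Pla2g7 were each above the limit on 1 of 12 arrays. Ptgs1, Ptges and the remaining listed members were not analysed here.

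None of the 10 receptor, transport and breakdown genes was called between the lines, and their median log2 difference was 0.14. Ptger1, an E-type prostaglandin receptor, was above the limit on all 12 arrays and averaged 153 scaled units in MLO-Y4 and 137 in 2T3 (log2 0.16, SE 0.58). Ptger4, the E-type receptor that signals through cyclic AMP and is known for the bone-forming response to prostaglandin E2, averaged 64.1 in MLO-Y4 and 32.0 in 2T3 (log2 1.00, SE 0.73, adjusted p = 0.499). Ptger2 (0.61) and Ptger3 (0.40) exceeded the limit on 3 and 2 of the 6 arrays of MLO-Y4 and on 3 and 1 of the 6 of 2T3. The prostaglandin D2 receptor gene Ptgdr2 averaged 8.60 in MLO-Y4 and 29.0 in 2T3 (log2 -1.75, SE 0.59, adjusted p = 0.0952). Log2 differences of Ptgir (0.79), Ptgdr (-0.18), Ptgfr (-0.02), Tbxa2r (-0.12) and the prostaglandin-degrading dehydrogenase gene Hpgd (0.12) rested mostly on values below the limit. None of the 23 genes passed between densities in either line, and neither did any of the 5030 spots.

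**Figure D4:**
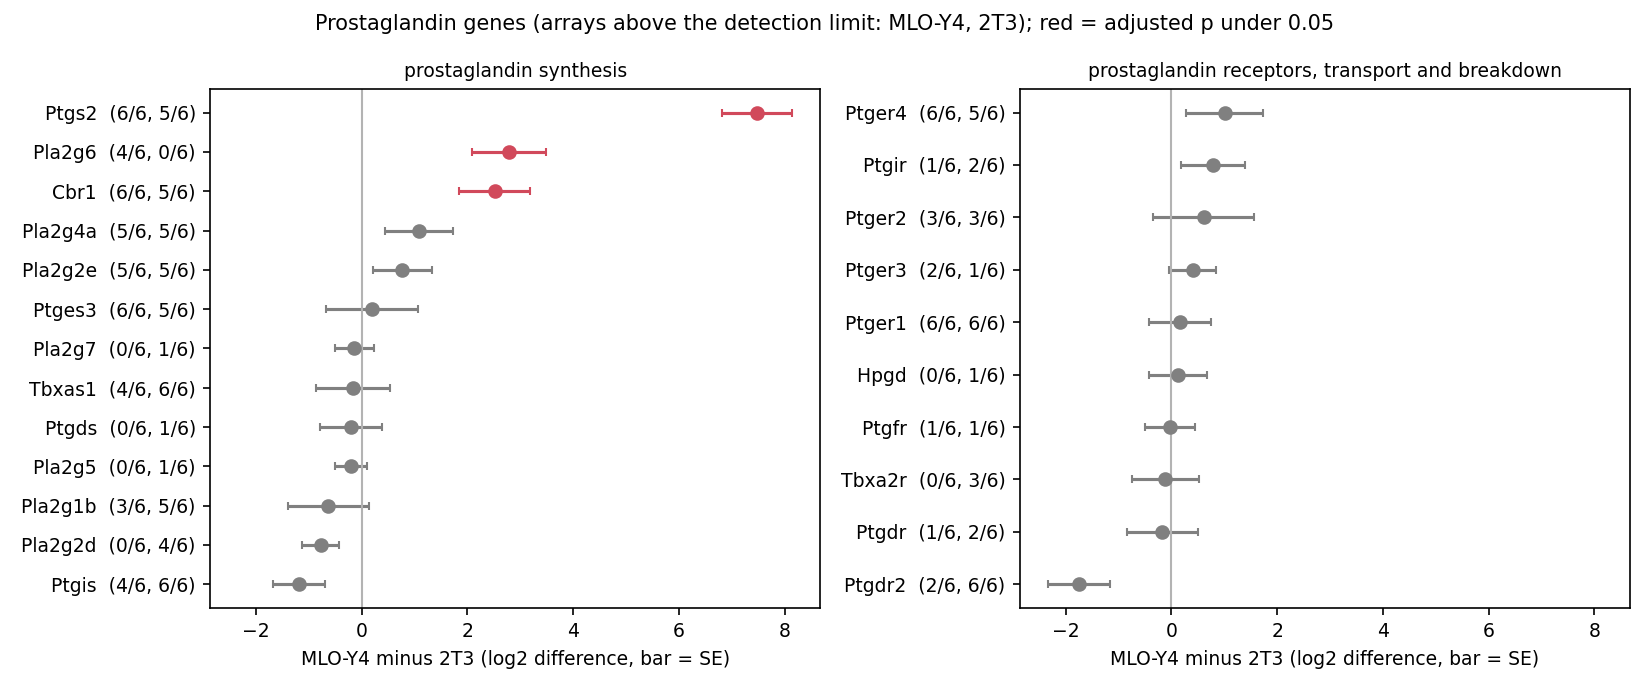
Log2 difference between the lines (horizontal axis, MLO-Y4 minus 2T3, bars are the SE of the fit) for the 13 measured prostaglandin synthesis genes (left) and the 10 receptor, transport and breakdown genes (right), with the number of arrays above the detection limit in MLO-Y4 and in 2T3 beside each name. Red marks an adjusted p under 0.05, which Ptgs2 (7.49), Pla2g6 (2.78) and Cbr1 (2.51) reached.

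Of 17 other eicosanoid genes, 1 was called higher in MLO-Y4 and 2 lower, beside 8.23% and 1.87% of all spots, with a median log2 difference of 0.36. Alox12, a lipoxygenase that uses the same substrate as Ptgs2, averaged 35.0 scaled units in MLO-Y4 and 5.47 in 2T3 (log2 2.68, SE 0.70, adjusted p = 0.0354). It exceeded the limit on 4 of 6 MLO-Y4 and only 1 of 6 2T3 arrays, so the size of this difference rests on values at background, and it was not called under 2 of the 3 scalings by quantile, detected spots and control genes. Faah and Mgll, hydrolases that break down endocannabinoids and can so release arachidonic acid, fell in MLO-Y4, with log2 differences of -2.89 (SE 0.60, adjusted p = 0.0112) and -1.70 (SE 0.46, adjusted p = 0.0392). Both exceeded the limit on all 6 arrays of 2T3, but Faah on only 1 of 6 and Mgll on 2 of 6 in MLO-Y4, so these sizes also rest mostly on values at background. The call of Alox12 was lost in 8 of 12 fits that left out 1 array and that of Mgll in 10 of 12. Without the 4 arrays numbered 1 Faah did not pass (log2 -2.44, adjusted p = 0.163).

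Factors that are known to act on the Ptgs2 promoter were listed as 27 measured genes, of which 3 were called higher in MLO-Y4 and 0 lower, beside 8.23% and 1.87% of all spots, a share of higher calls near that background. Their median log2 difference was 0.28. Cebpb, a C/EBP factor, averaged 125 scaled units in MLO-Y4 and 15.5 in 2T3 (log2 3.02, SE 0.65, adjusted p = 0.0131). Fosl1, a Fos-family partner in AP-1, averaged 4401 in MLO-Y4 and 616 in 2T3 (log2 2.84, SE 0.42, adjusted p = 0.00176). Nfkbia, the inhibitor that NF-kB itself induces, averaged 138 in MLO-Y4 and 21.6 in 2T3 (log2 2.67, SE 0.60, adjusted p = 0.0167). Runx1 missed the threshold (log2 2.15, SE 0.62, adjusted p = 0.0542). Cebpb and Fosl1 also passed under quantile, detected-spot and control-gene scaling, and Nfkbia missed under 2 of these 3. With the replicate block 6 of the 27 were called higher and 0 lower, where 505 of all spots were higher and 124 lower. With detected-spot scaling 2 were higher and 2 lower, where 240 of all spots were higher and 308 lower.

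Ptgs2 messenger RNA carries AU-rich elements and is stabilised or degraded by proteins that bind them. Of 10 measured factors of that kind, 1 was called higher in MLO-Y4 and 1 lower, beside 8.23% and 1.87% of all spots, with a median log2 difference of 0.08. Mapkapk2, a p38-activated kinase that acts on such binding proteins, averaged 392 scaled units in MLO-Y4 and 93.5 in 2T3 (log2 2.07, SE 0.44, adjusted p = 0.0122). Without the 4 arrays numbered 1 its adjusted p was 0.0805. Celf2, an RNA-binding protein known to hold back Ptgs2 translation, exceeded the limit on 0 of 6 MLO-Y4 and 5 of 6 2T3 arrays. Its means were 4.18 units in MLO-Y4 and 18.9 in 2T3, at least 1.30-fold lower in MLO-Y4 (adjusted p = 0.00636).

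Of 32 measured inflammatory genes that are often induced together with Ptgs2, 16 were called higher in MLO-Y4 and 1 lower, beside 8.23% and 1.87% of all spots. Their median log2 difference was 1.71, against 0.11 over all spots. The list was chosen with earlier results of these data known, so its share of calls is no independent evidence. Of the 16, 11 were also called higher under each of the quantile, detected-spot and control-gene scalings. With no scaling 6 of the 32 were called higher and 1 lower, where 74 of all spots were higher and 106 lower. The 4 with the smallest p were the acute-phase gene Saa3 (log2 12.30, SE 0.47) and the chemokine genes Ccl7 (9.14, SE 0.50), Ccl2 (6.62, SE 0.49) and Cxcl5 (4.51, SE 0.35). Saa3 and Ccl7 each exceeded the limit on 1 of 6 2T3 arrays. The 1 that fell, named after its values were seen, was the chemokine gene Cxcl12 (log2 -3.56, SE 0.88, adjusted p = 0.0264 in limma), a call lost in 9 of 12 fits that left out 1 array. At low density 9 of the 32 were called higher in MLO-Y4, and in dense culture 7. None passed between densities, and neither did any of the 5030 spots. The median log2 difference of the 32 between densities was 0.02 in MLO-Y4 (high minus low) and -0.40 in 2T3 (C0 minus low).

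Among 33 measured genes that respond to load in bone cells, 8 were called higher in MLO-Y4 and 2 lower, beside 8.23% and 1.87% of all spots. Their median log2 difference was 0.55, and Ptgs2 is 1 of the 8. With no scaling 3 were higher and 2 lower, where 74 of all spots were higher and 106 lower. Under quantile, detected-spot and control-gene scaling alike 5 of the 8 were called higher as well. Vegfa, the vascular endothelial growth factor gene, averaged 2648 scaled units in MLO-Y4 and 101 in 2T3 (log2 4.71, SE 0.44, adjusted p = 6.89e-05). The gene of the vasodilator peptide adrenomedullin, Adm, averaged 384 in MLO-Y4 and 27.5 in 2T3 (log2 3.80, SE 0.54, adjusted p = 0.00135). Wnt10b, a Wnt ligand, exceeded the limit on none of the 6 MLO-Y4 arrays and on all 6 arrays of 2T3, and was at least 1.85-fold lower in MLO-Y4 on means of 4.67 units in MLO-Y4 and 26.9 in 2T3 (adjusted p = 0.000899). None of the 33 passed between densities in either line, and neither did any of the 5030 spots.

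The labelled cell types were set against their markers, where 8.23% of all spots were called higher in MLO-Y4 and 1.87% lower. Of 12 listed osteocyte markers 7 were measured, and Dmp1, Mepe, Sost, Fgf23 and Gja1 were not among them. Of the 7, 5 were called higher in MLO-Y4, led by Ackr3 and including Pdpn (log2 3.46, SE 0.70). Phex was above the limit on 0 of 12 arrays. Without the 4 arrays numbered 1, Pdpn (adjusted p = 0.0860, limma) and Cd44 (adjusted p = 0.125) lost their call, while Ackr3, Dstn and Capg kept theirs. The summed level of the 7 ran from 5840 to 14464 in MLO-Y4 high, 5785 to 17441 in MLO-Y4 low, 395 to 1267 in 2T3 C0 and 637 to 1380 in 2T3 low. Of 10 osteoblast markers, 2 were called higher in MLO-Y4 (Dlx3 and Alpl) and 1 lower (Msx2), and Bglap and Ibsp did not pass. Dlx3 and Alpl were not called under quantile, detected-spot or control-gene scaling, and leaving out 1 array ended the call of Alpl in 9 of 12 fits and that of Msx2 in 8 of 12. The summed level of the 10 ran from 6540 to 19967 in MLO-Y4 high, 6182 to 19476 in MLO-Y4 low, 6143 to 12409 in 2T3 C0 and 5934 to 11642 in 2T3 low. Because macrophages also induce Ptgs2, macrophage and osteoclast markers were summed too. The sum over 13 genes was 261 to 882 in MLO-Y4 high, 266 to 593 in MLO-Y4 low, 211 to 446 in 2T3 C0 and 392 to 434 in 2T3 low. Of these, 0 were called higher in MLO-Y4 and 1, Tyrobp, was lower, and Ptprc, the pan-leukocyte marker, was above the limit on 0 of 12 arrays. Tyrobp lost its call without the arrays numbered 1 (adjusted p = 0.107, limma). Of 8 endothelial markers, 1 (Eng) was called higher in MLO-Y4, and Flt1 was above the limit on no array. Their sum was 754 to 2109 in MLO-Y4 high, 621 to 1722 in MLO-Y4 low, 132 to 165 in 2T3 C0 and 161 to 262 in 2T3 low. The median log2 difference of the 8 was -0.31. Of them, 4 exceeded the limit on at least 1 MLO-Y4 array and 7 on at least 1 2T3 array. A sum follows its brightest members, so the higher sum in MLO-Y4 does not describe the list as a whole. The part of other cell types in the Ptgs2 difference was not tested.

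Likeness to Ptgs2 was taken as Pearson's r over the 12 log2 values, among 2902 spots with 1 gene symbol that were above the limit on at least 6 arrays. The values share arrays and scaling, and the gap between the lines enters each r, so these are descriptions. The 8 most alike were Vegfa (0.972), Net1 (0.969), Mgat1 (0.968), Crabp2 (0.968), Pde4b (0.962), Tnfaip2 (0.958), Saa3 (0.953) and Hmga2 (0.953), and 91 spots had an r above 0.9. Pde4b encodes a phosphodiesterase that breaks down cyclic AMP, and Tnfaip2 a protein induced by tumour necrosis factor. The 3 most opposite were Zfp57 (-0.915), Mfng (-0.911) and the Wnt modulator gene Sfrp2 (-0.907). These exceeded the limit on 2, 0 and 1 of 6 MLO-Y4 arrays, and Pde4b and Saa3 each on 1 of 6 2T3 arrays. Each of these genes met the filter through the line where it is high, so its r mostly sets background against signal. The rest of the 8 most alike exceeded the limit on at least 5 arrays of each line. Without the 2 arrays farthest from the median of Ptgs2, which are 2T3 low array 1 and MLO-Y4 low array 1, the r of the 8 ran from 0.935 to 0.983.

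A different set followed Ptgs2 once the mean of each line was taken out. The 8 most alike were then Fnta (0.953), Eif3c (0.934), Pgk1 (0.915), Smpd1 (0.913), Ptp4a2 (0.910), Atxn10 (0.906), Srsf3 (0.905) and E2f3 (0.899). None of these 8 was among the 8 above, and none was called between the lines. Fnta encodes a subunit of farnesyltransferase, Pgk1 a glycolytic kinase and Smpd1 the acid sphingomyelinase. Without the same 2 arrays their r ran from 0.717 to 0.864, and with detected-spot scaling over all 12 arrays from 0.839 to 0.920. The line means taken out still included those 2 arrays, so the first range does not show the likeness free of them. By contrast, the r of Vegfa within lines was 0.638, or 0.382 with detected-spot scaling. On 2T3 low array 1 all 8 lay at their lowest within the line, as Ptgs2 did, and whether that array or the cells on it set this was not tested.

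**Figure D5:**
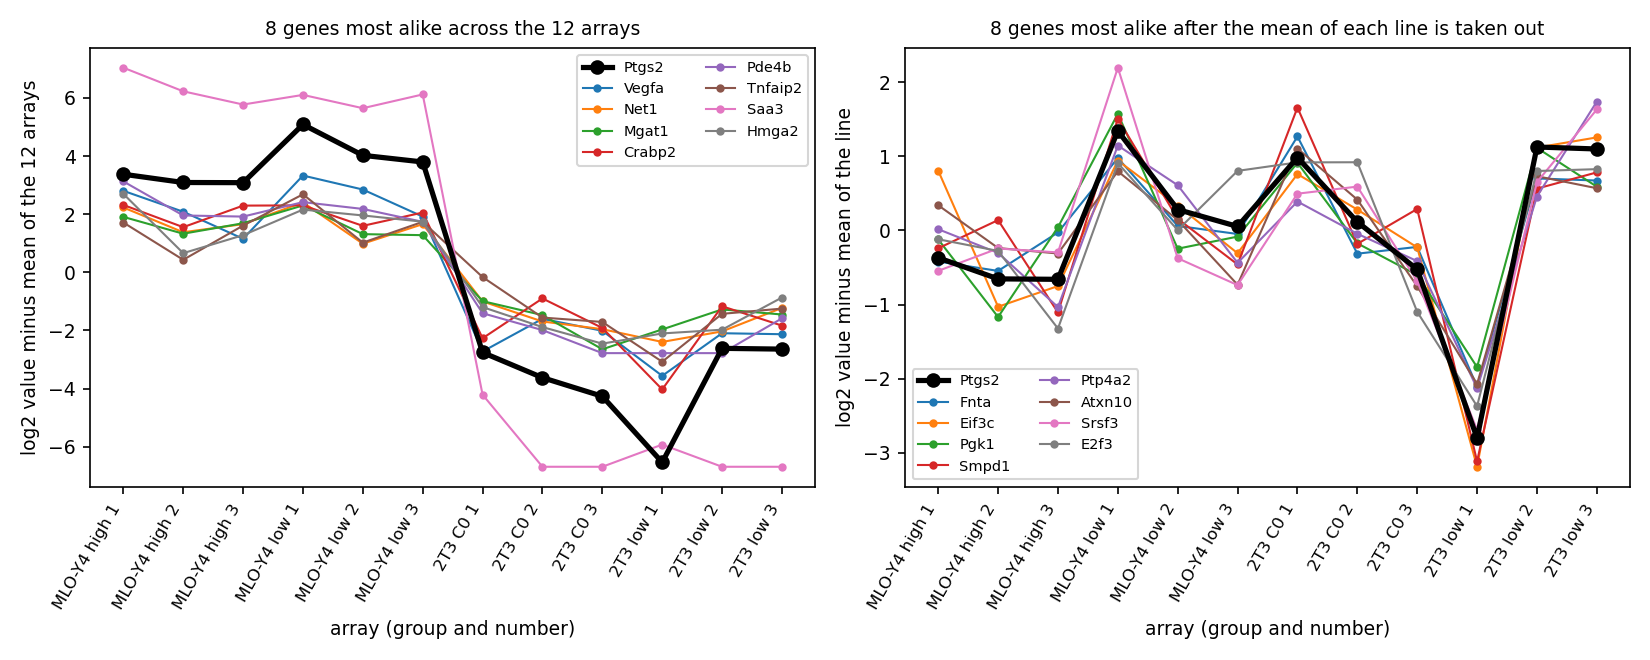
Log2 values of Ptgs2 (thick black line) and of the 8 genes most like it over the 12 arrays (left, each gene minus its own mean) and after the mean of each line is taken out (right), with arrays along the horizontal axis and log2 units on the vertical axis. On the left all 9 genes lie above their mean on the MLO-Y4 arrays and below it on the 2T3 arrays, and on the right all 9 are lowest on 2T3 low array 1.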

How the data were processed

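Ptgs2 and its gene lists were chosen with earlier results of these data known, so no list is independent evidence. The deposited values are spot intensities on a linear scale, 1 column per array, judged from the values themselves. The scanner, the background method and any normalization by the authors are unknown, since these sources do not give them. Spots were named through the platform annotation, and 4624 symbols were updated through Entrez identifiers in RefSeq's GRCm38.p6 table, while 392 spots stayed unnamed. Promoter letters are RefSeq's from that table. Arrays were scaled to equal medians and floored at 3.96 units (the 25th percentile of all scaled values) before log2. The floor raises low values, so folds against 2T3 depend on it.

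In limma 3.58.1 (R 4.3.3), the 4 group means were fitted with lmFit on 12 arrays (8 residual degrees of freedom), and 6 comparisons were tested two-sided with eBayes and adjusted over 5030 spots by Benjamini-Hochberg at 0.05. The script was tested on simulated data. Exact permutation tests were run on Ptgs2 alone. The genes named are Ptgs2, all measured prostaglandin genes, up to 4 members of each other list with the smallest p, and those most like Ptgs2.

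Same-numbered arrays deviated together (correlation across spots) at 0.627, 0.480 and 0.514 in MLO-Y4 high and low. In MLO-Y4 high and 2T3 C0 it was 0.504, 0.293 and 0.375, and in MLO-Y4 low and 2T3 C0 0.471, 0.263 and 0.421. An unmatched pair, 2T3 C0 array 3 and MLO-Y4 high array 2, reached 0.283. Same-numbered arrays did not deviate together in 2T3 C0 and low (0.0673, 0.0991 and 0.113) or in MLO-Y4 low and 2T3 low (-0.0265, -0.118 and 0.0889). No label names a pairing. Whether a batch or the share of spots above the limit set these values was not tested. Alternatives were 4 other scalings, a higher floor, an offset of 50, a filter on dim spots, the replicate block, the compared groups alone, and leaving out arrays.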

Additional observations from a re-analysis of the deposited data

Results flagged for a closer look

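Ptgs2 stood far lower on 1 of the 6 2T3 arrays than on the others when read as a percentile of its array. The lowest, 2T3 low replicate 1, was at percentile 9.34, and the others ran from 51.3 to 73.3. Its gap to the nearest other array was 0.656 of the range of the 6, above Dixon's 95% critical value for 6 values, which chance alone passes in about 1 of 20 groups. On that array the spot read 7 against a detection limit of 23, while 74.8% of the spots there lay above the limit, the largest share of the 12 arrays.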

How the results depend on the processing

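The difference of Ptgs2 between the lines kept its direction and its call under all 22 alternatives, from 5.89 to 7.81 on the log2 scale, with adjusted p from 1.12e-06 to 0.000368 in limma, and leaving out 1 array at a time gave 6.83 to 7.81. At low density it ran from 6.42 to 8.88 (6.93 to 8.88 with 1 array left out) and in dense culture from 5.32 to 7.13 (6.38 to 7.13). Both lost their call in 1 of 24 alternatives, the compared groups alone with the replicate block, added after seeing the data, at 8.24 (SE 1.33, adjusted p = 0.183) and 6.73 (SE 0.34, adjusted p = 0.0907). That fit has 6 arrays. The arrays of MLO-Y4 low and 2T3 low share only a number. Without the block the same groups alone gave adjusted p = 0.0460 and 0.0140. The replicate block over 12 arrays changed no call of Ptgs2 (between the lines 7.49, SE 0.70, adjusted p = 0.000166). The difference between MLO-Y4 high and low stayed negative, from -1.37 to -0.68, and never passed.

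The 2T3 difference, not called in any setting, turned to -0.35 with the floor at the 50th percentile, to -0.041 with the offset of 50 and to -1.32 without the 4 arrays numbered 1, and ran from -0.92 to 1.03 with 1 array left out. The difference of the density effects turned to 0.49 without the 4 arrays numbered 1 and otherwise ran down to -2.56 with control-gene scaling, and from -2.15 to -0.20 with 1 array left out. The cause was not tested. Of the 23 prostaglandin genes, 3 were called as reported, 1 with no scaling (where 74 of all spots were called higher and 106 lower) and 1 to 2 with 1 array left out. Ptgs2 lay below the detection limit on 1 of 6 2T3 arrays, which limits the precision of folds against 2T3.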
